A study of Mus musculus with 95 samples.

Results

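The data described here are the 11 libraries of dorsal hippocampus from males of the FKBP51-Nex-Cre mouse line, 5 knockouts and 6 wild types. They were chosen by line, region, sex and genotype from a series of 95 libraries. All animals were of C57BL/6 background and were sampled at baseline without treatment, and their age is not stated in the labels. The series crosses 2 mouse lines with 2 brain regions, both sexes and both genotypes, which makes 16 groups, and asks how loss of FKBP51 acts in different neurons of each sex. In the line described here Cre is driven from Nex (Neurod6), a gene of forebrain glutamatergic neurons, so interneurons, glia and vessel cells are not targeted. The labels do not state whether wild types carry the Cre allele or which exons of Fkbp5 are removed. Libraries are named here by genotype, K for knockout and W for wild type, and the number in their title.

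FKBP51, the protein of Fkbp5, is a co-chaperone that binds HSP90 in steroid receptor complexes and lowers the affinity of the glucocorticoid receptor for its hormone. The active receptor in turn raises transcription of Fkbp5, which closes a short feedback loop. In the hippocampus, a region rich in glucocorticoid and mineralocorticoid receptors, this loop is known as one setting of the stress response. NEUROD6 is a basic helix-loop-helix factor of pyramidal neurons, and factors of that class bind E-boxes.

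The driver gene and the single gene that rose in the knockouts lie next to each other on chromosome 6 and are read away from each other, with 3307 bases between them. Their promoters are shown because both genes bear on the Cre locus. Each window runs from 250 bases before to 50 bases after the gene start, from RefSeq on GRCm38.p6, 5′ to 3′ on the gene's own strand, with E-boxes (CANNTG, which reads the same on both strands) in capitals.
Neurod6, chr6:55681214-55681513, minus strand: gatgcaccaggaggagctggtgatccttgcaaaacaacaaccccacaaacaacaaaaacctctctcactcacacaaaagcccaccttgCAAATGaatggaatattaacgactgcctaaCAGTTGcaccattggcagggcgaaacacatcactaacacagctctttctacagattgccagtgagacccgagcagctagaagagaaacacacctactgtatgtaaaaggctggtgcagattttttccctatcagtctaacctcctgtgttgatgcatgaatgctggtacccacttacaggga
Gm3279, chr6:55684321-55684620, plus strand: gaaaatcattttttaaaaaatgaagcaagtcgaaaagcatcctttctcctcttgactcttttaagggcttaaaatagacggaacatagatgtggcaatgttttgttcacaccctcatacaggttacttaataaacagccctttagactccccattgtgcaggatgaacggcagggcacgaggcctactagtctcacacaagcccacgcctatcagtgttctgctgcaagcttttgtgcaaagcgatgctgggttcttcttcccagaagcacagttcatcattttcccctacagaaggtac
The Neurod6 window holds 2 E-boxes and the Gm3279 window 0. Of the 32851 mouse promoters of this table, 72.3% hold at least 1 E-box and 39.6% hold 2 or more, so the Neurod6 window is common in this respect. No further reading is drawn from these matches.

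The base composition of transcripts also bears on the results, and 1 coding start shows it. It belongs to Mgat4c, the protein-coding gene of lowest GC content among the 12 genes of smallest p that were higher in knockouts, described further on. The first 120 coding bases are from GENCODE M21 (GRCm38), with G and C in capitals.
Mgat4c, gene at chr10:101681487-102391469, plus strand: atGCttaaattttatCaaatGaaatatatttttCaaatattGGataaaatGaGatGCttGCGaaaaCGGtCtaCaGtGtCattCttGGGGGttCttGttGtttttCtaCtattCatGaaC
G and C make up 30% of this stretch. Over the longest transcript the GC content of Mgat4c was 35.3%.

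The 11 libraries held 19.6 to 29.9 M counts, within the 19.6 to 31.2 M of the whole series, and 18780 of the 54532 genes in the table passed the filter on low counts. Levels are in CPM, counts scaled to the same library size. Ddx3y, a Y-linked gene, stood between 49.6 and 77.6 CPM and Xist between 0.0426 and 0.422 CPM in these males. CA1, CA2 and CA3 and dentate granule markers were present in every library. Knockout libraries K543 and K571 stood apart. On the log2 scale, the median of their genes in the highest GC decile lay below the median in the lowest decile by a difference of -0.84 and -0.65, against -0.06 to 0.08 in the other 9. They also had the highest shares of mitochondrially encoded counts, 5.35% and 4.90%, against 3.07% to 4.16%. Among the other 84 libraries of the series this GC difference ran from -0.89 to 1.12, and 5 lay beyond 0.5 in either direction. The libraries also differed in markers of neighbouring regions. The CA1 marker level, the mean log2 deviation of the list from the wild-type mean, was lowest in knockouts K575 (-2.08) and K583 (-1.0), and wild type W539 was at -0.78. The thalamic marker level was 1.64 and 1.11 in knockouts K575 and K583, and 1.11 and 1.06 in wild types W539 and W573. In bulk tissue, fewer cells of a type and less RNA per cell cannot be told apart.

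**Figure D1:**
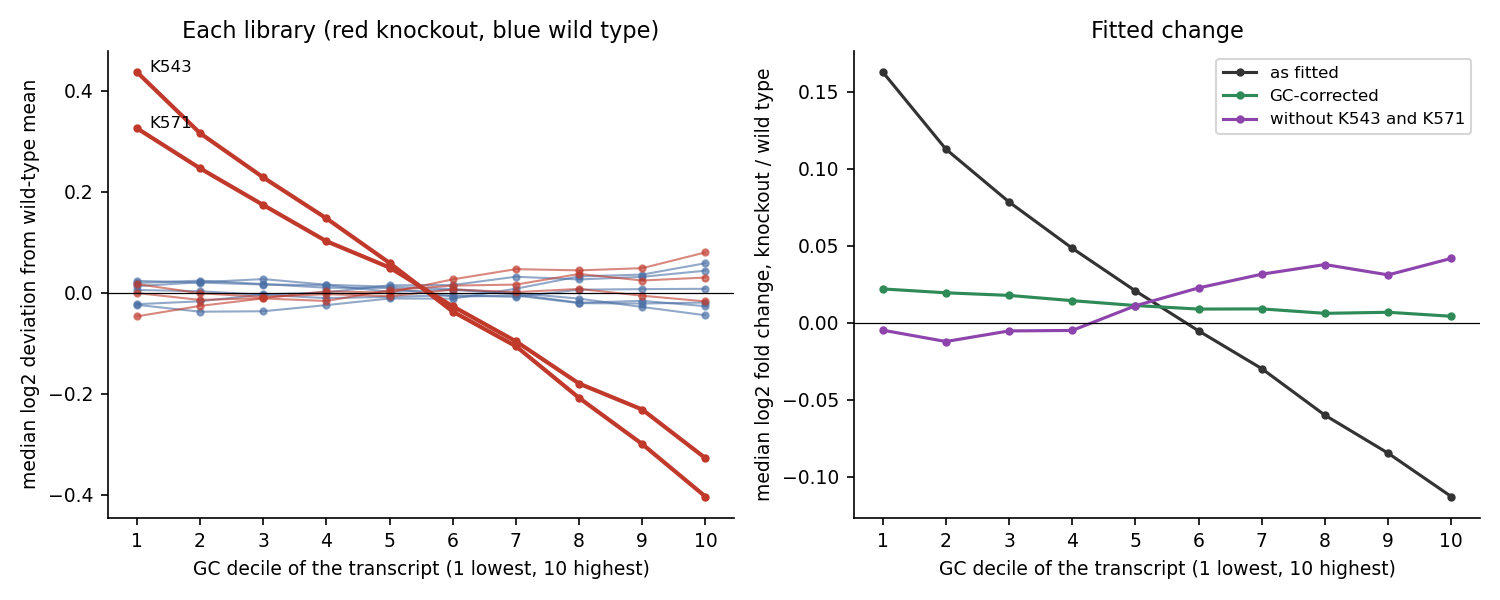
Left, median log2 deviation from the wild-type mean in each GC decile of 15609 genes at a mean of 1 CPM or more, for each library (6 wild types in blue, 5 knockouts in red). Right, the median fitted log2 fold change by decile in 3 fits. Knockouts K543 and K571 fall from 0.44 and 0.33 in the lowest decile to -0.40 and -0.33 in the highest, and the fitted change runs from 0.16 to -0.11.

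The plot of deviations by GC decile shows that the slope of the group difference goes with these libraries. After an offset for GC content was fitted, the decile medians ran from 0.02 to 0.00. That offset was fitted to these same genes, so flat medians were fixed beforehand and nothing is drawn from them. Without libraries K543 and K571 the decile medians ran from 0.00 to 0.04. Results that rest on these libraries are therefore given with the GC correction and without the pair, both chosen after seeing the data.

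Fkbp5 and Gm3279 were the 2 genes that passed an adjusted p of 0.05 among 18780 tested, which is 0.0106% of them, 1 in each direction (0.00532% each). Fkbp5 (ENSMUSG00000024222, chr17:28399094-28517527) fell, with 26.9, 26.6, 19.1, 36.7 and 24.9 CPM in knockouts K543, K557, K571, K575 and K583. The wild types had a lowest value of 44.2, a median of 56.0 and a highest of 57.2 CPM. The groups did not overlap. Knockout K575, with the lowest CA1 marker level, kept the most Fkbp5, but K583, next lowest in that level, had less Fkbp5 than K543 and K557. The means were 26.8 ± 6.32 (SD, n = 5) and 53.3 ± 5.32 CPM (n = 6), 49.7% lower in knockouts, on 541 to 897 raw counts against 1066 to 1451. The log2 fold change was -0.99 (SE 0.13, edgeR adjusted p = 0.00211). An exact two-sided permutation test gave p = 0.00433, the smallest it can give for 5 against 6. The call ended in a fit of the 11 libraries alone (-0.99, adjusted p = 0.109 by edgeR) and without libraries K543 and K571 (-0.86, adjusted p = 0.0833 by edgeR), and the GC correction left -0.96.

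Gm3279 (ENSMUSG00000108063, chr6:55684571-55694574), a long intergenic non-coding RNA gene, rose from near absence. Knockouts K543, K557, K571, K575 and K583 had 1.69, 1.19, 1.86, 1.23 and 0.775 CPM, on 34, 28, 54, 30 and 19 raw counts. The wild types had 0 to 0.280 CPM with a median of 0.245, on 0 to 7 raw counts. All 5 knockouts lay above all 6 wild types. The fitted log2 fold change was 2.84 (SE 0.47, edgeR adjusted p = 0.0302), with an exact permutation p of 0.00433. Gm3279 was picked from these same libraries. All 52 higher and 42 lower genes without overlap reach that permutation p, so it adds no support here. At these counts the call was not firm, since it ended in 8 of the 11 fits that left out 1 library, in the fit of the 11 libraries alone and with limma's quality weights. The value stayed between 2.49 and 3.18 in all the settings tried.

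Neurod6 (ENSMUSG00000037984, chr6:55677822-55681263), the gene at the Cre locus, did not pass. Knockouts K543, K557, K571, K575 and K583 had 117, 96.7, 129, 77.7 and 40.8 CPM, and the wild types a lowest value of 107, a median of 162 and a highest of 189. All 5 knockouts lay below the wild-type median, and 3 lay below every wild type. The log2 fold change was -0.76 (SE 0.23, edgeR adjusted p = 0.334), with an exact permutation p of 0.0173. It was -0.88 after GC correction, -1.12 without libraries K543 and K571, and -0.55 with the thalamic marker level as a covariate. With 1 surrogate variable it was -0.90 and passed (edgeR adjusted p = 0.0246). Neurod6 is also a CA1 marker, 1 of the 13 genes whose mean is the CA1 level. Knockouts K583 and K575, lowest in Neurod6, were the ones lowest in the CA1 level, but that level includes Neurod6 itself. The part of tissue composition in this difference was not tested beyond that covariate.

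**Figure D2:**
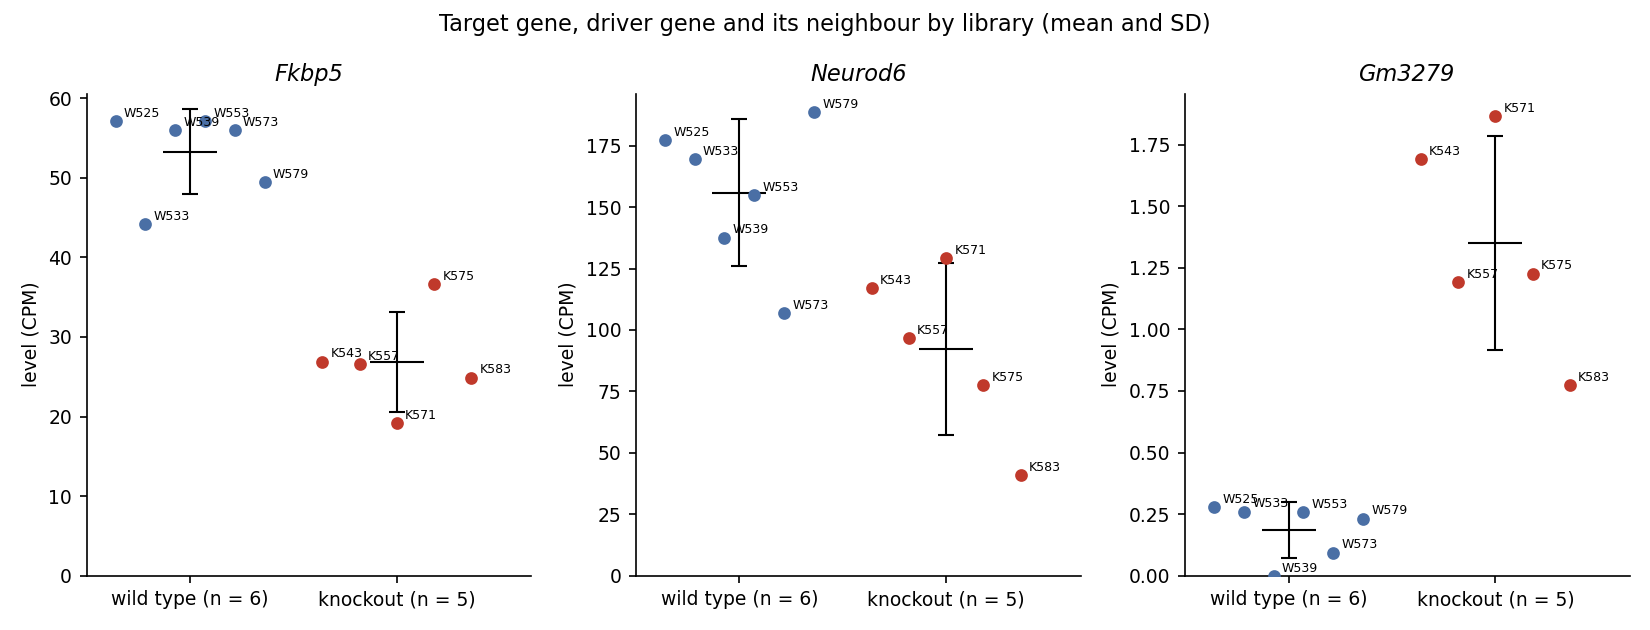
Levels in CPM of Fkbp5, Neurod6 and Gm3279 in each library, with wild types in blue (n = 6), knockouts in red (n = 5), library numbers beside the points, and bars for mean and SD. For Fkbp5 and Gm3279 the groups do not overlap, while for Neurod6 knockouts K543 and K571 reach into the wild-type range.

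Within 1 Mb of Fkbp5, 49 other genes were tested and 0 were called by edgeR, with 3 higher and 1 lower at an unadjusted p under 0.05. The 3 higher were Srsf3, a splicing factor, at a log2 fold change of 0.18, Slc26a8 at 0.38 and Gm26885 at 0.81. The 1 lower was AC132460.3, at -1.49. Within 1 Mb of Neurod6, 15 genes were tested and Gm3279 was the 1 called, with 3 higher and 0 lower at an unadjusted p under 0.05. The other two were Gars and 6430584L05Rik, the latter at 0.60. Gars, the glycyl-tRNA synthetase, was at 0.21. These neighbours were named after their values were seen.

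**Figure D3:**
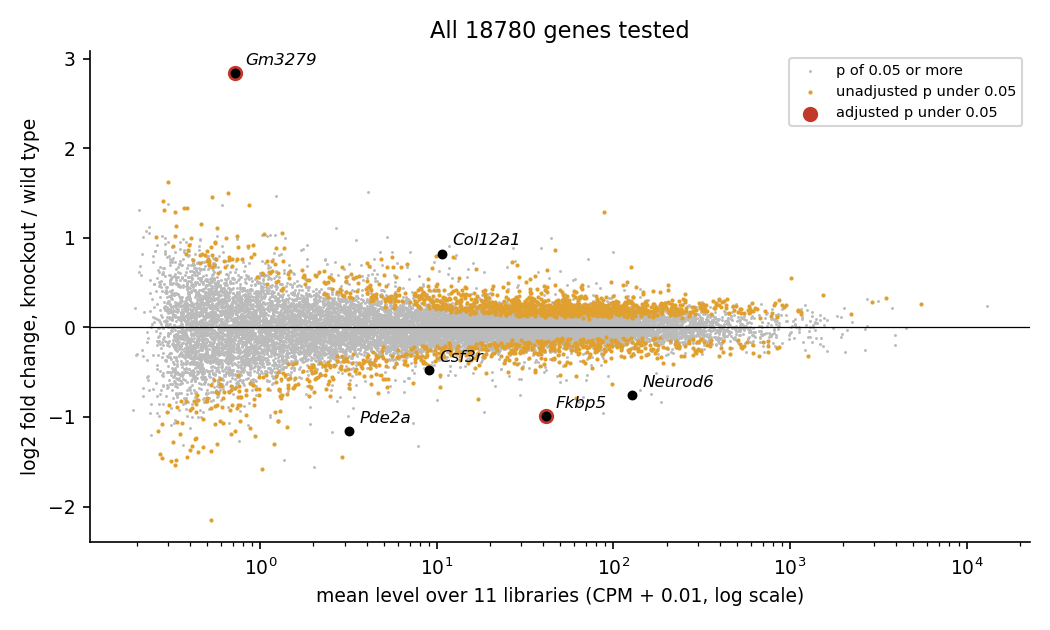
Log2 fold change of knockout over wild type against mean level (log axis, CPM with 0.01 added) for all 18780 genes tested. Fkbp5 and Gm3279 passed the adjusted threshold and are ringed in red, and the orange genes had an unadjusted p under 0.05.

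Beyond the pair called, differences were shallow and their number depended on the fit. With no effect at all, a share near 0.05 of the genes would be expected at an unadjusted p under 0.05. At an unadjusted p under 0.05 stood 1864 genes (9.93%), with 1197 higher (6.37%) and the others lower (3.55%) in knockouts, and the median log2 fold change of all genes was 0.01. Groups did not overlap for 52 genes that were higher (0.277%) and 42 that were lower (0.224%). The first set had a median GC content of 44.1% and the second of 54.9%. In the lowest GC decile 385 of 1561 genes were higher at that unadjusted p and 4 were lower, while in the highest decile 4 were higher and 184 lower. After GC correction these became 64 and 27, and 75 and 43, an evening across deciles that follows from the fitted offset. Over all genes the correction left 791 higher (4.21%) and 399 lower (2.12%). The count of 1864 was 998 in the fit of the 11 libraries alone, 810 with limma's quality weights and 1041 without library K543. It was 2064 without K543 and K571 and 3191 without K583.

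At a mean level of 1 CPM or more, which leaves out Gm3279, the 12 genes of smallest p among those that were higher included genes of metabolism, protein turnover and membrane traffic. All 12 had adjusted p-values above 0.1 by edgeR, so none was called. Slc25a32 (chr15:39091231-39112716), the mitochondrial folate carrier, had 25.4, 22, 21.3, 18 and 18.5 CPM in knockouts K543, K557, K571, K575 and K583. The wild types ran from 14.6 to 17.6 CPM with a median of 15.7, so the groups did not overlap. The log2 fold change was 0.41 (SE 0.08, edgeR adjusted p = 0.132).

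Col12a1, a fibril-associated collagen, had 11.2, 17.5, 15.3, 11.3 and 14.4 CPM in the same order, against 4.80 to 10.8 CPM in wild types with a median of 7.74. The groups did not overlap, and its log2 fold change of 0.82 (SE 0.18) was 0.81 after GC correction and 0.87 without libraries K543 and K571. Ccser1 (0.41) and Mgat4c (0.67), a glycosyltransferase of N-glycan branching, also had no overlap. Stmn2, a microtubule regulator of growing axons, had 255, 253, 249, 229 and 190 CPM against 142 to 210 CPM. Knockout K583 alone lay within the wild-type range for Stmn2, whose log2 fold change was 0.42 (SE 0.09).

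Hmgcs1, an early enzyme of cholesterol synthesis, was at 0.34 on the log2 scale, and Me1, the malic enzyme that supplies NADPH to lipid synthesis, at 0.40. In both, 4 of 5 knockouts lay above every wild type. Skp1a, a subunit of SCF ubiquitin ligases, was at 0.31 and Psmd5, which helps assemble the proteasome, at 0.29. For Skp1a the value was 0.15 without libraries K543 and K571, and for Psmd5 it became 0.16. Vamp7, a SNARE protein of late endosomes, was at 0.43 as fitted and 0.23 without that pair of libraries. Its identifier lies on an unplaced scaffold. Miga1 (0.27), of mitochondrial fusion, and Pdlim5 (0.26), a PDZ and LIM scaffold, complete the 12, and Miga1 was at 0.15 without that pair.

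Among the 12 lower genes, Fkbp5 led and Csf3r, the receptor of granulocyte colony-stimulating factor, came next. Csf3r (chr4:126024550-126044440) had 7.86, 7.62, 7.46, 6.99 and 7.26 CPM in knockouts K543, K557, K571, K575 and K583, and 9.23 to 11.5 CPM in wild types with a median of 10.5. The groups did not overlap and knockouts varied little. The log2 fold change was -0.48 (SE 0.09, edgeR adjusted p = 0.079), and it lay between -0.51 and -0.37 in all settings. The microglial marker list had a median of -0.13 beside it, with 16 of 19 members below 0 and a summed level of 490 to 595 CPM in wild types and 448 to 597 CPM in knockouts. The part of cell composition in the Csf3r difference was not tested.

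Pde2a (ENSMUSG00000110195), which breaks down cyclic AMP and cyclic GMP, had 1.29, 1.53, 1.86, 3.07 and 1.71 CPM in knockouts. The wild types ran from 3.15 to 6.51 CPM with a median of 3.97. These low values are of this identifier alone, and whether another entry shares its reads was not tested. The groups did not overlap, and the log2 fold change was -1.16 (SE 0.27, edgeR adjusted p = 0.323). Fyb, an adaptor of immune cell adhesion, was at -0.63 and Lrrk1, a large kinase of endosomal trafficking, at -0.54, both without overlap. Rab11fip3, an effector of recycling endosomes, was at -0.28 and Ptpn1, a phosphatase of insulin and leptin receptors, at -0.25, again without overlap. After GC correction Rab11fip3 and Ptpn1 came to -0.15 each.

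Nlgn2, the neuroligin of inhibitory synapses, was at -0.25, Rfx1, a winged-helix transcription factor, at -0.26 and Sipa1l3, a Rap regulator, at -0.31. These GC-rich genes came to -0.12, -0.12 and -0.17 after GC correction. Gm7061 (-0.77) and Gm9987 (-0.68) are annotated as pseudogenes, and reads they share with a parent gene may be split between copies. The 12 higher genes had a median GC content of 44.1% and the 12 lower genes of 55.5%, against 49.6% for 15609 genes at 1 CPM or more. All 24 kept their direction after GC correction and without libraries K543 and K571, which follows in part from their choice by small p in these same libraries. With the correction 12 of 12 higher and 8 of 12 lower genes had an unadjusted p under 0.05.

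**Figure D4:**
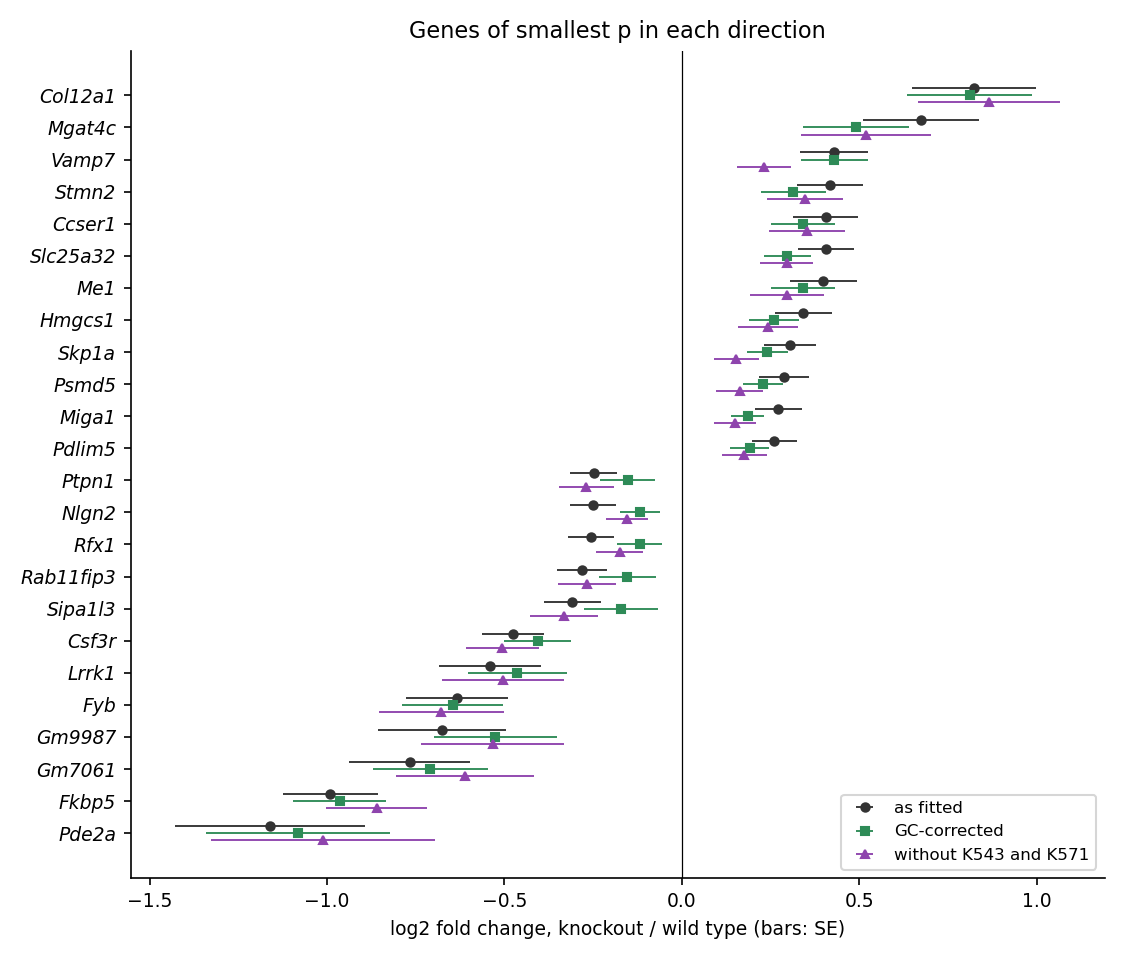
Log2 fold changes with SE of the 12 higher and 12 lower genes of smallest p, as fitted, with GC correction, and without knockout libraries K543 and K571. Vamp7 and Skp1a are smaller without those libraries, at 0.23 and 0.15, and Rfx1 and Nlgn2 are smaller after GC correction, at -0.12 each.

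Library K583 decided how many genes passed. Without it 36 genes were called by edgeR, which is 0.19% of 18936 tested, 29 higher (0.153%) and 7 lower (0.037%). Slc25a32, Skp1a, Stmn2, Vamp7, Me1, Hmgcs1 and Psmd5 were among those higher. At 1 CPM or more, the largest rises were in Rpl17 (1.0), a ribosomal protein gene with processed copies whose reads may be split, Frzb (0.79), a secreted Wnt antagonist, and mt-Nd6 (0.70), a subunit of mitochondrial complex I. Lmo4, a LIM-domain cofactor of cortical neurons, rose by 0.51 and Rap1b, a small GTPase, by 0.41. With libraries K543 and K571 left out in place of K583, Rap1b was at 0.07 and mt-Nd6 at 0.25, with unadjusted p-values of 0.34 and 0.13 by edgeR. Among the 7 falls called without it were Jak3 (-0.59), a cytokine receptor kinase, Efs (-0.58), a SRC substrate, Csf3r (-0.47), Apc2 (-0.35), a microtubule-binding relative of APC, and Fkbp5.

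Apc2 and Jak3 were named because they passed without library K583, so the place of that library in them follows from the choice. The levels of Apc2 were 153, 188, 171 and 185 CPM in knockouts K543, K557, K571 and K575 and 283 CPM in K583, against 207 to 234 CPM in wild types. The first 4 lay below every wild type and the last above every one. Jak3 had the same pattern, with 5.82, 6.17, 5.66 and 6.58 CPM and then 11 CPM, against 7.25 to 10.9 CPM. The 29 higher genes had a median GC content of 43.4% and the 7 lower genes of 59.1%. With GC correction and without library K583, 10 genes were called by edgeR, and 7 of them were among the 36. Without libraries K543 and K571, 17 of the 29 and 3 of the 7 had an unadjusted p under 0.05.

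The chaperone system to which FKBP51 belongs gave no called member. Counts at an unadjusted p under 0.05 in this and the following lists stand beside 6.37% higher and 3.55% lower over all genes as fitted, and 4.21% and 2.12% after GC correction. With 1 library left out, the medians of 16 of the 39 lists changed sign and those of a further 18 moved by over 1.5 times. Of 25 relatives of FKBP51 and HSP90 co-chaperones tested, 3 were higher (12%) and 0 lower, and 1 was higher after GC correction. Their median log2 fold change was -0.03. Hsp90aa1, the inducible HSP90, had 888 ± 110 CPM (SD, n = 5) against 745 ± 39.4 (n = 6), at a log2 fold change of 0.25. It was 0.18 after GC correction and 0.12 without libraries K543 and K571. Ptges3, the p23 co-chaperone, was at 0.25. Of 28 HSP70 and heat shock genes, 4 were higher (14.3%) and 1 lower (3.57%), with a median of 0.09. Hspa8, the constitutive HSP70, was at 0.19 and Dnajb5, its partner, at -0.30. Without libraries K543 and K571 they were at 0.10 and -0.15.

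Steroid receptors and genes that glucocorticoids induce had 0 called members. Of 10 receptors and coregulators, 0 were higher and 1 was lower at an unadjusted p under 0.05. Of 28 glucocorticoid-induced genes, 1 was higher and 5 were lower, with 19 of 28 below 0 and a median of -0.07. Among the 5 were Per2 (-0.36) and Per1 (-0.21), both of the circadian clock, Zbtb16 (-0.40), a transcription factor, and Map3k6 (-0.37), a stress kinase. Without libraries K543 and K571, Per2 was at -0.54, Per1 at -0.13 and Map3k6 at -0.24. After GC correction 0 of them were lower at that threshold, and the list median was -0.04. Of 24 immediate early genes 19 were below 0, with a median of -0.21, and 2 were lower at an unadjusted p under 0.05, Ier5 (-0.39, and -0.21 without that pair) and Junb (-0.50). Their summed level ran from 957 to 1441 CPM in wild types and from 832 to 1148 CPM in knockouts, so the groups overlapped.

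Signalling lists in which FKBP51 is described as a scaffold showed little. Of 24 genes of AKT, GSK3 and autophagy, 2 were higher and 1 lower, with a median of -0.02. Atg5, of autophagosome formation, was at 0.26 and 0.15 without libraries K543 and K571. Akt2 was at -0.19, and -0.11 after GC correction. Of 16 NF-kB and immune genes, Csf3r was the 1 that was lower. Of 14 genes of DNA methylation, Tet3, a 5-methylcytosine oxidase, was the 1 lower, at 80.3 ± 3.39 against 90.2 ± 5.16 CPM (SD, n = 5 and 6) without overlap. After GC correction 0 of the 14 were lower at an unadjusted p under 0.05. The list median of -0.03 became 0.004 after that correction and 0.06 without libraries K543 and K571.

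Among synaptic genes, too, 0 were called. Of 18 genes of presynaptic release, 5 were higher and 1 lower at an unadjusted p under 0.05, and 15 of 18 were above 0 with a median of 0.13. Snap25, a SNARE of vesicle fusion, had 1748 ± 248 against 1357 ± 222 CPM (SD, n = 5 and 6), at 0.37, and was 0.36 without libraries K543 and K571. Rims1 (0.25), of the active zone, was also higher, and Unc13a (-0.16), the vesicle primer, was lower. Without that pair Rims1 was at 0.15, and after GC correction Snap25 was at 0.24 and Unc13a at -0.07. After that correction 7 of 18 were higher and 0 lower.

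Of 14 postsynaptic scaffold genes, 0 were higher and 3 were lower, with a median of -0.11. Among them were Shank1 (-0.32), a scaffold protein, and Dlg4 (-0.21), which encodes PSD-95. Shank1 came to -0.16 after GC correction and Dlg4 to -0.11 without libraries K543 and K571. Of 16 AMPA and kainate receptor genes, Cacng2 (0.22), the auxiliary protein stargazin, was the 1 higher (6.25% of the list) and its relative Cacng8 (-0.40) the 1 lower, which is near the share over all genes. Cacng8 came to -0.24 after GC correction and no longer had an unadjusted p under 0.05. Of 12 GABA-A receptor subunits, 11 were above 0 and 2 were higher at an unadjusted p under 0.05. Their median of 0.19 became 0.05 after GC correction and -0.13 without libraries K543 and K571, so the direction rests on those libraries. Kcnc2, a fast potassium channel, was at 0.45 and 0.41 without them.

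Energy and protein turnover lists had 0 called members. Of 13 mitochondrially encoded genes, 7 were higher at an unadjusted p under 0.05 and all 13 were above 0, with a median of 0.32. The list level was 0.77 and 0.86 in knockouts K543 and K571, 0.38 and 0.24 in K557 and K583, and -0.28 in K575. Without the first pair the median was 0.03, and 2 of 13 were higher after GC correction. mt-Co3, of complex IV, was at 1.29 and 1.16 without them, and its knockout level of 131 ± 65.2 CPM varied widely around a wild-type level of 53.6 ± 10.3 (SD, n = 5 and 6). Of 31 nuclear genes of oxidative phosphorylation, 3 were higher and 0 lower as fitted, and 8 were higher after GC correction. Of 23 proteasome and ubiquitin genes, 8 were higher and 0 lower, with a median of 0.06, and 4 were higher after GC correction. Psma1, a core subunit, was at 0.21, and 0.12 without libraries K543 and K571. The list level was highest in knockout K557, at 0.27, and between 0.00 and 0.05 in the other knockouts.

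Summed markers of hippocampal subfields and of thalamus overlapped between the groups. Of 13 CA1 markers 12 were below 0, with a median of -0.51, and 1 was lower at an unadjusted p under 0.05, Neurod6. Their summed level ran from 712 to 1991 CPM in wild types and from 388 to 1432 in knockouts. Of 15 CA2 and CA3 markers 14 were above 0, with a median of 0.31, and 5 were higher, among them Spock1 (0.41), a matrix proteoglycan, Tgfb2 (0.42), a growth factor, and Nectin3 (0.54), an adhesion molecule. Dentate granule markers had a median of 0.13 and 0 of 14 passed an unadjusted p of 0.05. The CA1 median was -0.27 without K575, -0.92 without K571 and -1.33 without K543 and K571. Of 16 thalamic markers 15 were above 0, with a median of 0.54 as fitted, 0.18 without K575, 0.86 without W573 and 0.96 without K543 and K571. It was 0.06 with the thalamic level as a covariate. That covariate is the mean of these same 16 genes, so a median near 0 was fixed beforehand and nothing is drawn from it. With that covariate the CA1 median was -0.15 and the CA2 and CA3 median 0.22. The part of tissue composition in these values was not tested further.

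For markers of other cell types the medians were -0.12 for 20 interneuron genes, -0.02 for 14 astrocyte genes, -0.11 for 19 oligodendrocyte genes, -0.07 for 16 vessel genes and -0.13 for 19 microglial genes. At an unadjusted p under 0.05, C1qb (-0.28) and Tmem119 (-0.25) were lower among the microglial genes, and were -0.08 and -0.09 without libraries K543 and K571. Choroid plexus genes had a median of 0.44, which was 0.08 without K543, 0.95 without W539 and -0.12 without K543 and K571. They ran from 158 to 486 CPM in sum in wild types and from 155 to 537 in knockouts. The 5 blood genes tested had a median of -0.77, and their level was highest in wild type W525. Without W525 the direction turned, to a median of 0.12, and without K557 it was -1.01.

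**Figure D5:**
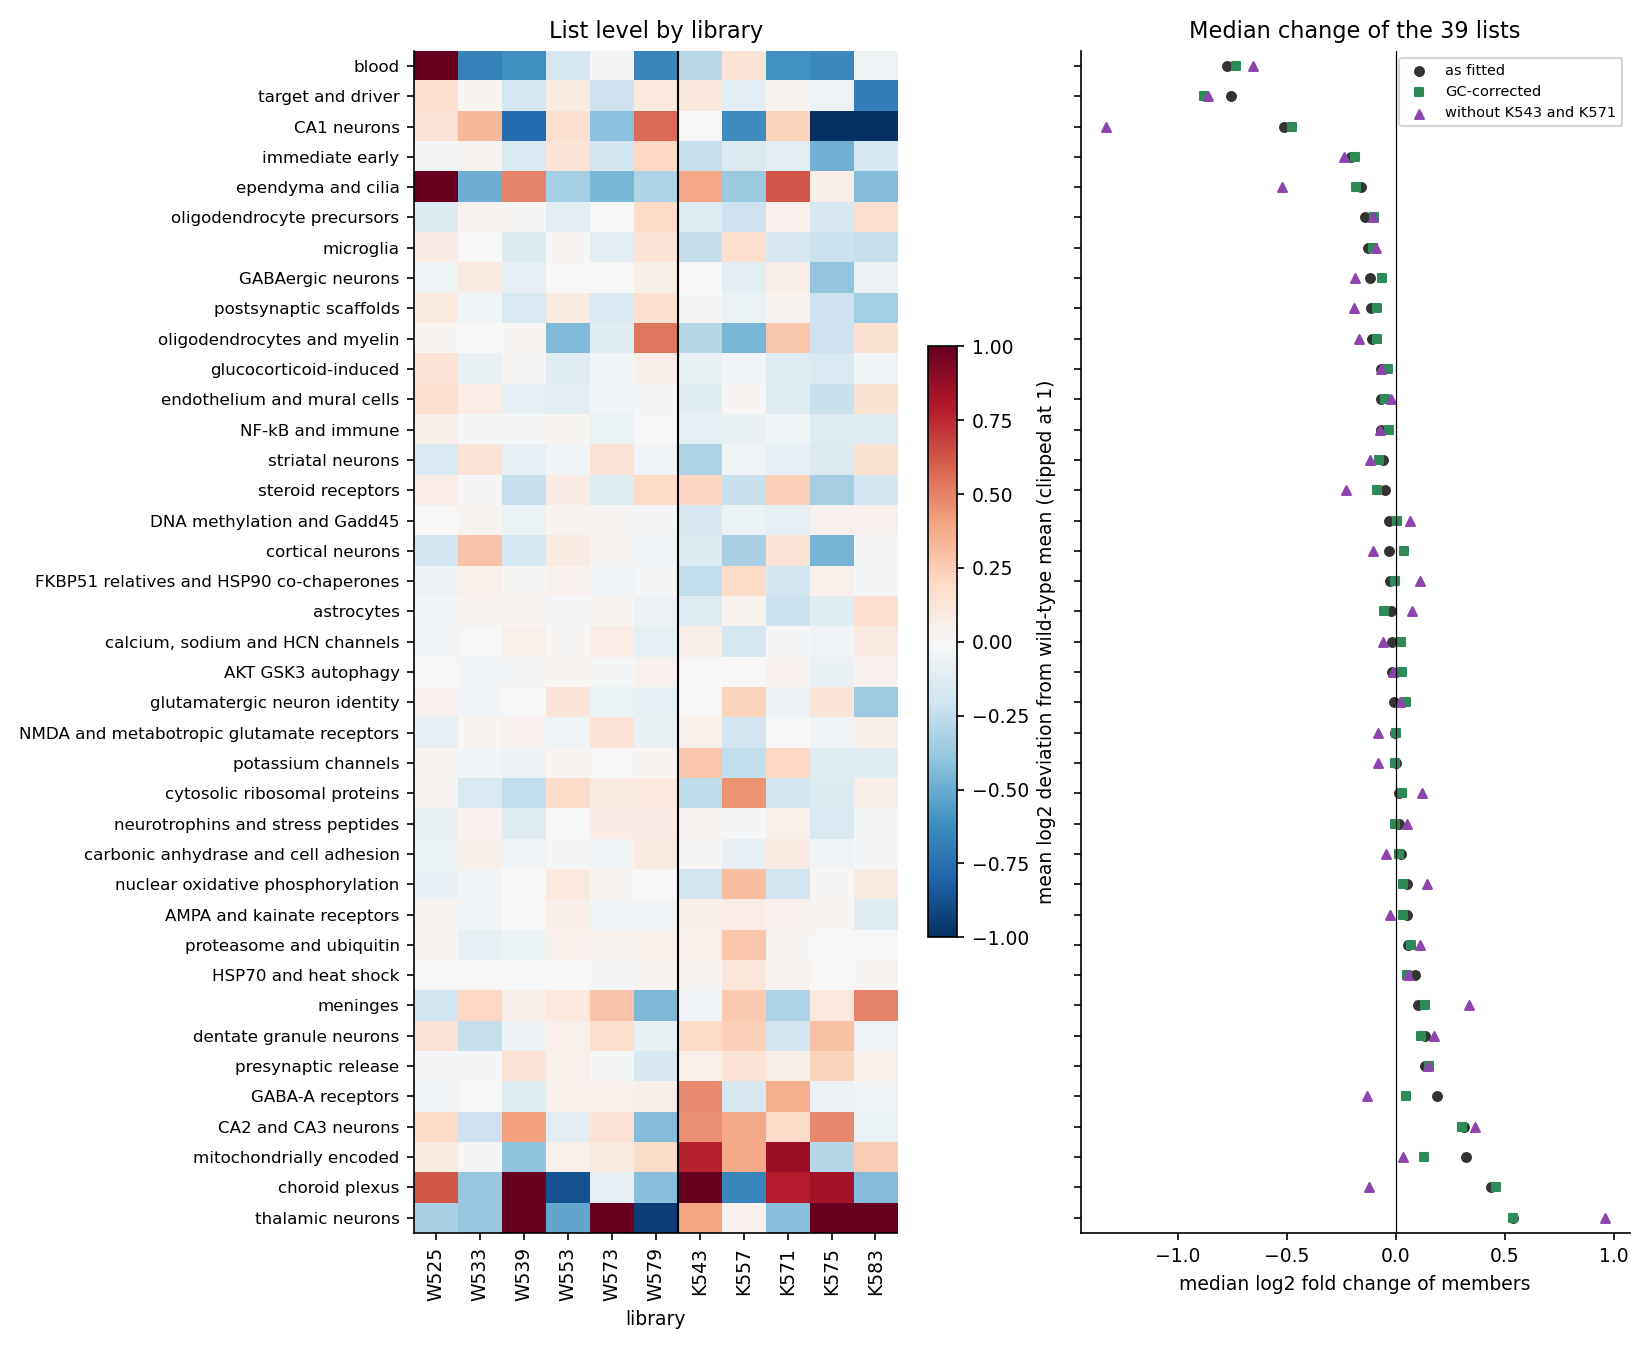
Left, level of each of 39 gene lists in each library as the mean log2 deviation from the wild-type mean, with colours clipped at 1 in both directions. Right, the median log2 fold change of each list in 3 fits. CA1 and thalamic markers go opposite ways in every library but knockout K543, and lie furthest apart in knockouts K575 and K583 and wild type W539. The mitochondrially encoded list is highest in knockouts K543 and K571.

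The comparison with females of the same line and region asked whether the effect differed by sex. By edgeR's interaction test 0 of 18780 genes were called (0%), with 510 at an unadjusted p under 0.05 (2.72%), and 0 by DESeq2. For Fkbp5 the difference between the male and female log2 fold changes was 0.08, with a 95% interval from -0.27 to 0.44. For Gm3279 it was 0.03 (-2.32 to 2.38) and for Neurod6 0.04 (-0.58 to 0.66). The Gm3279 interval is unreliable, because its SE of 1.2 was derived from a difference near 0. The separate SEs of Gm3279 were 0.47 in males and 0.48 in females. The female levels of Fkbp5 were 27.0 ± 5.06 and 56.7 ± 5.31 CPM (SD, n = 6 each). Those of Gm3279 ran from 0.582 to 1.35 CPM in female knockouts and from 0 to 0.318 in female wild types. Its female log2 fold change was 2.81 (edgeR adjusted p = 0.0473), in the fit that shares its spread with the males. Csf3r had a log2 fold change of -0.04 in females, but its interaction did not pass.

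Set against bed nucleus (of the stria terminalis) in Nex males, 0 of 19086 genes were called by edgeR for a difference of effect (0%), with 356 at an unadjusted p under 0.05 (1.87%). Fkbp5 had the smallest p, with a difference of -0.92 (95% interval -1.28 to -0.55, edgeR adjusted p = 0.562). In the bed nucleus Fkbp5 stood at 29.9 ± 4.96 CPM in knockouts and 31.5 ± 3.03 in wild types (SD, n = 6 each). Csf3r came second, with -0.71 (-0.99 to -0.42). Gm3279 was near absent in the bed nucleus, at 0 CPM in knockouts and 0 to 0.0903 CPM in wild types. DESeq2 called 2 genes, Fkbp5 and Csf3r, and 1, Fkbp5, was called by edgeR without library K575. One bed nucleus wild type had the GC difference of -0.89 given above.

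Set against the hippocampus of Dlx males, in which Cre acts in forebrain GABAergic neurons, 0 of 18663 genes were called by edgeR (0%), with 1153 at an unadjusted p under 0.05 (6.18%). Fkbp5 again had the smallest p, with a difference of -0.91 (95% interval -1.24 to -0.57, edgeR adjusted p = 0.436), and DESeq2 called it alone. Its levels in the Dlx hippocampus were 56.8 ± 3.73 CPM in knockouts and 60.6 ± 9.61 in wild types (SD, n = 6 each). Neurod6 came second at -1.30 (-1.86 to -0.74), with 211 ± 25.7 CPM in Dlx knockouts and 146 ± 33.7 in Dlx wild types. Gm3279 had 0.189 ± 0.193 CPM in Dlx knockouts and 0.166 ± 0.158 in Dlx wild types (SD, n = 6 each). The median difference of effect was -1.27 over the 12 CA1 markers other than Neurod6 and 1.51 over the 16 thalamic markers in this comparison. With the thalamic marker level as a covariate, the difference of Neurod6 was -0.97 (SE 0.24), that of the 12 CA1 markers -0.34 and that of the thalamic markers 0.11. The last value follows from that fit, whose covariate is the mean level of those same thalamic markers. In that fit Fkbp5 was the 1 gene called, at -1.07 (SE 0.17, edgeR adjusted p = 0.0477).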

How the data were processed

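RNA of 95 brain samples was sequenced, and the 11 of Nex male dorsal hippocampus are described. The authors deposited raw counts per gene and library, for which the submitters' processing notes name featureCounts 1.5.0-p3 and HISAT2 2.0.5. The build and the strand setting are not given in the sources used here. Of 54495 gene identifiers found in GENCODE M21, 98.3% had its GRCm38 coordinates. A further 95 per-sample columns (FPKM with lost decimal marks) were not used. Samples were grouped by their titles and labels. The design text gives 5 to 6 mice per condition. The edgeR p-values of knockout against wild type set each difference against a spread between samples. That spread was estimated over the 23 libraries of both sexes, not over the 11 alone.

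Counts were fitted in R 4.3.3 with edgeR 4.0.16 (filterByExpr, TMM, quasi-likelihood test, Benjamini-Hochberg at 0.05), with the 23 libraries of both sexes of Nex hippocampus sharing their spread. Called means past that threshold. Levels are CPM of filtered, TMM-scaled totals, and SE is the log2 fold change over the root of F. Level scores and permutation tests use log2 of CPM with 0.5 added. Interactions used 4 groups each. Depth was 19.6 to 29.9 M counts. In simulated counts for this comparison (18549 genes), 87% of 100 genes changed 2-fold and 98% of 100 changed 4-fold were called, with 4 false calls. The changed genes were drawn from those at 1 CPM or more. The simulated libraries had no GC shift and no differences of dissection, so these rates do not carry over to the real libraries or to genes as low as Gm3279.

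The members and lists were chosen with earlier results of these data known. Named are Fkbp5, Neurod6, every called gene, the 12 genes of smallest p in each direction at 1 CPM or more, up to 10 called per direction without library K583, and up to 4 members per list, a few of which are not reported here. Alternatives were no filter, DESeq2 1.42.0, its size factors in edgeR, a fit of the 11 libraries alone, limma 3.58.1 with quality weights, 1 surrogate variable (sva 3.50.0), each library left out, a replicate block and 8 hippocampal groups. Added after seeing the data were an offset from a spline of GC content (8 degrees of freedom, longest transcript), removal of libraries K543 and K571, a thalamic covariate, and the GC offset without library K583.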

Additional observations from a re-analysis of the deposited data

Results flagged for a closer look

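Of 154 groups of values examined, 11 held a library far from the others of its group by Dixon's ratio of gap to range, and chance gives about 1 in 20. Among single genes these were Pde2a in wild type W533 (6.51 CPM, others up to 4.40, ratio 0.63), and in knockout K583 Jak3 (ratio 0.827) and Apc2 (ratio 0.729). Genes named because they passed without K583, Jak3 and Apc2 among them, were chosen in a way that sets K583 apart, and without such genes 9 of 136 groups remain. Among list levels, knockout K583 was lowest for target and driver (0.724) and for AMPA and kainate receptors (0.797). Knockout K557 was highest for HSP70 and heat shock genes (0.744), microglia (0.812) and proteasome and ubiquitin genes (0.821). Wild type W579 was highest for HSP70 and heat shock genes (0.746), wild type W525 highest for blood genes (0.768) and wild type W539 lowest for mitochondrially encoded genes (0.651).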

How the results depend on the processing

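The count of 2 called genes in knockout against wild type was 2 with median-of-ratios size factors, no filter, the GC correction and the thalamic covariate. It was 6 with 1 surrogate variable, 1 with DESeq2 (which gave Gm3279 no adjusted p), 1 with limma's quality weights and 10 with the GC correction without library K583. It was 0 with only the 2 groups compared (998 at an unadjusted p under 0.05) and 0 without libraries K543 and K571 (2064). Leaving out 1 library gave 1 to 36 calls, with 3 without library K575, 36 without K583 and 1 or 2 otherwise. The 1864 genes at an unadjusted p under 0.05 became 1041 to 3191 over those fits, 1190 after GC correction and 810 with quality weights. Fkbp5 lay between -1.14 and -0.90 with 1 library left out and passed each time. It did not pass with only the 2 groups (-0.99) or without libraries K543 and K571 (-0.86).

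The sex interaction gave 0 calls in every fit run. The region interaction gave 2 calls with DESeq2, 0 to 1 with 1 library left out and 0 otherwise, and the line interaction 1 with DESeq2, 1 with 1 surrogate variable, 1 with the thalamic covariate, 0 to 1 with 1 library left out and 0 otherwise. At an unadjusted p under 0.05, counts reached 1756 of the sex and 3063 of the line interaction without libraries K543 and K571. Replicate numbers recur between the regions in 9 animals' labels. Deviations of same-numbered samples correlated between -0.051 and 0.241 over the most variable genes. Samples of unlike number were not compared, so these values cannot decide whether equal numbers mark the same animal. The main fit of the region interaction treated the libraries as independent. A replicate block left the region interaction at 0 calls.

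The named genes were mostly chosen for small p in these same libraries, so a kept direction follows in part from the choice. Among 35 of them and 21 settings, 735 values in all, 0 changed direction. Members of lists that did included Kcnq5 (-0.0081), mt-Nd3 (-0.086), Gabra2 (-0.031) and Kcnj3 (-0.020) without libraries K543 and K571, Chordc1 (-0.00035) and Grin1 (0.0092) after GC correction, and Grin1 (0.083) with that correction without library K583. The cause was not tested. At this depth and number of libraries, changes smaller than 2-fold were not simulated.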

Other observations

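A further 3 lists were drawn up after the values were seen, so they have no test and are given as values. Of 31 genes of cholesterol and lipid synthesis, 23 lay above 0, with a median log2 fold change of 0.14 as fitted, 0.12 after GC correction and 0.14 without libraries K543 and K571. Sqle, which oxidises squalene, had 50.7 ± 1.93 CPM in knockouts and 42.1 ± 4.83 in wild types (SD, n = 5 and 6) without overlap. Stard4, a cholesterol carrier, was at 0.46. Of 23 genes of haematopoietic signalling, 20 lay below 0, with a median of -0.22 as fitted, -0.22 after GC correction and -0.25 without that pair. Of 19 genes of tubulins, stathmins and 14-3-3 proteins, 16 lay above 0, with medians of 0.13, 0.18 and 0.19, and Tuba1a and Tuba1b, the main neuronal alpha-tubulins, were at 0.27 and 0.37.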
